A study of Mus musculus with 21 samples.

Results

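Trip6 and its relatives of the zyxin family of LIM-domain adhesion genes were examined in the hippocampus of male mice raised with or without maternal separation. The members were 7 of the 55487 genes in the counts table: Trip6, Zyx, Lpp, Limd1, Ajuba, Wtip and Fblim1. Trip6 was selected on its difference between separated and control mice in these same animals, so its values in that comparison are a description with no test. The other 6 genes were taken for their membership of the family and of related LIM-domain adhesion genes. All 7 passed the filter on low counts and stood among the 18146 genes tested.

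Poly-A RNA of dissected hippocampus was sequenced, with 1 library for each mouse. All animals were wild-type C57BL/6 males sampled at 10 weeks of age. The maternal separation (MS) group held 9 mice from nests that were taken away from the dam for 4 hr a day between postnatal days 10 and 17 and that also lost most of their nesting material, and the standard rearing (SR) group held 12 control mice. Whole nests received 1 condition and the labels name no nest, so p-values below measure the spread between mice and not between nests. The animal numbers run in 7 sets of 3 consecutive numbers, called A to C in MS and D to G in SR, and fall in a lower range (A, B, D, E and F) and an upper range (C and G).

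Total counts lay between 17276810 and 30449055 per library. The MS library A2 lay apart from the rest, with a score of 27.1 on the first principal component against -12.2 to 11.9 in the other 20 libraries. Its summed level of 9 dentate granule cell markers was 232 CPM (the counts of a gene scaled to library size and TMM factor), where the lowest of the other libraries had 418 CPM, and its summed level of 9 striatal neuron markers was 2056 CPM. A2 was left out, which gave 8 MS and 12 SR mice, and values with it are given where they differ. In the 20 mice the 9 CA pyramidal cell markers summed to 1022 to 1783 CPM, and none of the granule cell or pyramidal cell markers was at 0 in any mouse. In whole tissue, fewer cells of a type and less RNA per cell cannot be told apart.

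LIM domains are zinc-binding protein modules through which proteins bind other proteins. Zyxin, LPP and TRIP6 sit at focal adhesions and along actin stress fibres and shuttle to the nucleus, and zyxin and LPP bind VASP and alpha-actinin. AJUBA, LIMD1 and WTIP form the Ajuba subfamily, which binds the LATS kinases of the Hippo pathway and also acts in microRNA silencing. FBLIM1, also called migfilin, links filamin and kindlin at integrin adhesions.

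The proteins of all 7 genes carry 3 LIM domains at their C-terminal end, and the sequence of those domains shows how the members are related. The coding stretch of the first zinc finger of the second LIM domain is printed as an example, and it has the same length, 72 bases, in all members. Capitals mark the codons of the 4 zinc-binding residues, which are cysteine, cysteine, histidine and cysteine. The sequences are those of GENCODE M21 transcripts on GRCm38, written 5′ to 3′ on the coding strand.
Trip6: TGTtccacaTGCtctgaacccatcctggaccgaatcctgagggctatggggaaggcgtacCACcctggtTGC
Zyx: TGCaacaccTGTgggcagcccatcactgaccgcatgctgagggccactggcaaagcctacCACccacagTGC
Lpp: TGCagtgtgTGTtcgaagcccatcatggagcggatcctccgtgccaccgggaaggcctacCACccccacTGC
Limd1: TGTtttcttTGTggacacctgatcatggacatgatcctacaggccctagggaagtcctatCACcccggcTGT
Ajuba: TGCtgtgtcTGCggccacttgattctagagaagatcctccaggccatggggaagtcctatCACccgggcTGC
Wtip: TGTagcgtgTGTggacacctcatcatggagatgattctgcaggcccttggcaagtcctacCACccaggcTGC
Fblim1: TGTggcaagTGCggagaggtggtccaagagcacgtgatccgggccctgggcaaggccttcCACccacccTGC
Over the whole region from the first to the last LIM domain, the translated sequence of Trip6 was 72.9% identical to that of Lpp and 57.7% to that of Zyx, while Zyx and Lpp shared 55.8%. In the Ajuba subfamily the identity was 74.3% between Limd1 and Wtip, 70.6% between Ajuba and Wtip and 65.8% between Limd1 and Ajuba. Identity between Trip6 and the 3 genes of the Ajuba subfamily was 44.8% to 47.5%. Fblim1 stood farthest from the rest, with 39.8% to 47.5%. The residues before the LIM domains, 282 in Trip6, held 18.8% proline in Trip6, 24.8% in Zyx, 20.9% in Lpp and 23.9% in Fblim1, against 10.6% to 13.5% in the Ajuba subfamily. No stretch of 50 bases was shared between the transcripts of any members.

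The genes lie on 7 different chromosomes of GRCm38. Trip6 (ENSMUSG00000023348) spans chr5:137309654-137314404 on the minus strand, Zyx (ENSMUSG00000029860) spans chr6:42349630-42360213 on the plus strand, and Lpp (ENSMUSG00000033306) spans chr16:24393507-24992578 on the plus strand. Limd1 (ENSMUSG00000025239) spans chr9:123478706-123521552 on the plus strand, Ajuba (ENSMUSG00000022178) chr14:54567472-54577558 on the minus strand and Wtip (ENSMUSG00000036459) chr7:34109543-34133268 on the minus strand. Fblim1 (ENSMUSG00000006219) spans chr4:141576062-141606096 on the minus strand.

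The members differed widely in level. Per kilobase of annotated exon, over the 20 mice, Zyx had 7.10 ± 0.528 CPM (SD, n = 20), the highest level, followed by Trip6 with 4.46 ± 0.733. Wtip had 2.72 ± 0.386 and Limd1 2.49 ± 0.342 CPM per kilobase, and Wtip was above Limd1 in 13 of 20 mice, so the order of this pair was within their spread. Ajuba had 0.776 ± 0.253 and Lpp 0.571 ± 0.0524 CPM per kilobase, with Ajuba the higher in 16 of 20 mice. Fblim1 was lowest with 0.247 ± 0.0907. The other neighbours in this order kept it in 20 of 20 mice. Among the genes tested, Zyx stood at percentile 65.5 of level per kilobase, Trip6 at 53.7 and Fblim1 at 5.41. The annotated exons of Lpp add up to 22046 bases, the longest of the members, and its level per kilobase depends on how much of them is used.

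Trip6, whose product bridges adhesion sites, actin and the nucleus, was higher in MS than in SR mice. In SR mice its lowest, median and highest levels were 8.41, 9.70 and 12.0 CPM, and in MS mice they were 10.1, 12.0 and 15.1 CPM. All 8 MS mice lay above the SR median, 4 of them lay above every SR mouse, and 7 of the 12 SR mice lay below every MS mouse, so the groups overlapped in part. The means were 12.3 ± 1.67 CPM in MS (SD, n = 8) and 9.87 ± 1.10 in SR (n = 12), a log2 fold change of 0.31 (SE 0.0775), or 1.24-fold. Counts behind these values were 168 to 303 per library. Trip6 was among the 134 of 13871 genes (0.966%) under an adjusted p of 0.05 in DESeq2's Wald test of these mice, the kind of test it was selected with. The quasi-likelihood test of edgeR called 2 of 18146 genes higher in MS (0.0110%) and 0 lower (0.00%), with 2095 genes at an unadjusted p under 0.05, and Trip6 was not among its calls.

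**Figure D1:**
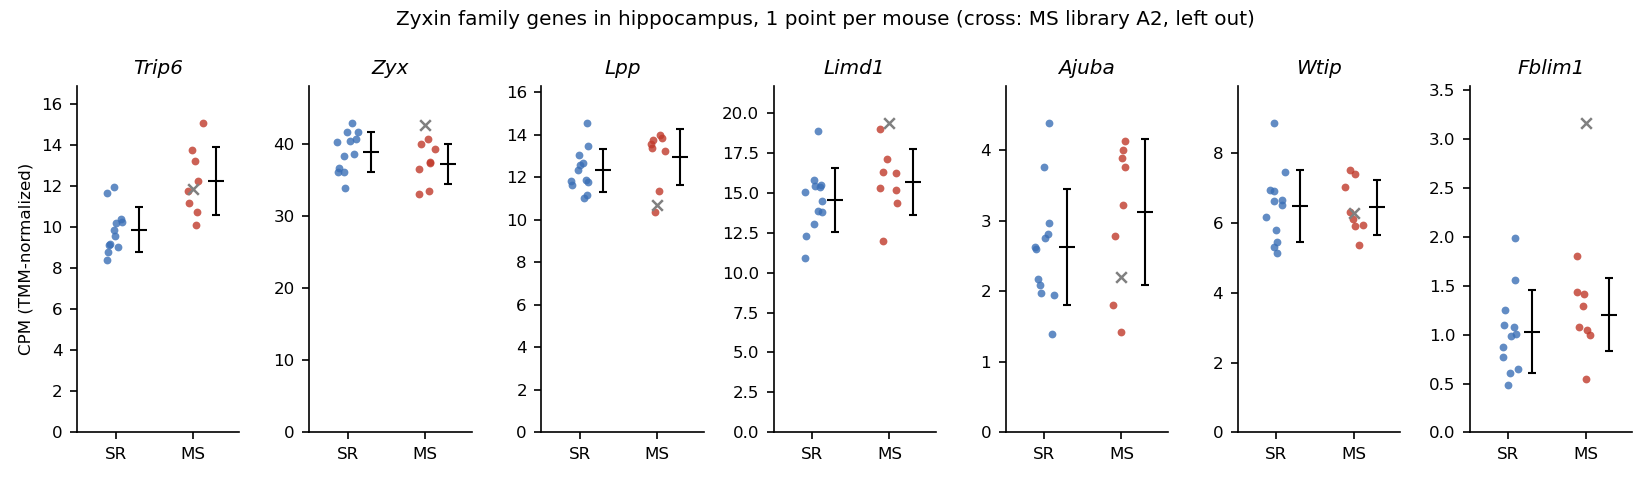
Level of each of the 7 genes in CPM, 1 point for each mouse, in SR (12 mice) and MS (8 mice), with bars for the mean and SD and the left-out library A2 drawn apart. The MS mice lie at 10.1 to 15.1 CPM for Trip6 against 8.41 to 12.0 in SR, while in the other 6 panels the groups cover nearly the same range.

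None of the other 6 members passed the test between MS and SR (edgeR quasi-likelihood test, adjusted over all 18146 genes). This test called 2 genes higher in MS (0.0110%) and 0 lower, so 0 calls among 6 members does not set them apart from other genes. Zyx, the founding member and an actin-assembly adaptor of stress fibres, had 33.9, 39.5 and 42.9 CPM as its lowest, median and highest level in SR and 33.0, 37.4 and 40.7 CPM in MS. Its groups overlapped along nearly their whole length, and its log2 fold change was -0.06 (SE 0.0484, adjusted p = 0.645), with a 95% interval from -0.16 to 0.04. Lpp, the LIM-domain gene closest to Trip6 in sequence, had 11.0, 12.1 and 14.6 CPM in SR and 10.4, 13.5 and 14.0 CPM in MS. Its log2 fold change was 0.07 (SE 0.0632, adjusted p = 0.720, 95% interval -0.06 to 0.20), and no MS mouse lay above every SR mouse.

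In the Ajuba subfamily, Limd1, a scaffold that binds LATS kinases and Argonaute proteins, had 10.9, 14.8 and 18.8 CPM in SR and 11.9, 15.8 and 19.0 CPM in MS. The difference was 0.11 on the log2 scale (SE 0.0845, adjusted p = 0.664, 95% interval -0.07 to 0.28), with 6 of 8 MS mice above the SR median. Ajuba, which also takes part in cell-cell junctions, had 1.40, 2.62 and 4.39 CPM in SR and 1.42, 3.49 and 4.13 CPM in MS. These ranges lay almost on top of each other although the log2 fold change was 0.25 (SE 0.202, adjusted p = 0.676), and the 95% interval ran from -0.17 to 0.67. Wtip, named for its binding to the Wilms tumour protein, had 5.15, 6.58 and 8.86 CPM in SR and 5.37, 6.21 and 7.52 CPM in MS, a log2 fold change of -0.01 (SE 0.0945, adjusted p = 0.985, 95% interval -0.20 to 0.19). Fblim1 had 0.484, 0.995 and 1.99 CPM in SR and 0.548, 1.19 and 1.81 CPM in MS from only 10 to 47 counts per library. Its log2 fold change was 0.21 (SE 0.231, adjusted p = 0.768), and the 95% interval of -0.26 to 0.69 leaves room for a change larger than that of Trip6.

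These intervals were narrowest for Zyx and widest for Fblim1, the members with the most and the fewest counts. Between mice of the same condition, the coefficient of variation was 7.12% in SR and 7.55% in MS for Zyx, and 41.2% and 31.1% for Fblim1. The difference of Zyx was bounded to 0.892-fold to 1.02-fold, that of Lpp to 0.958-fold to 1.15-fold, and that of Ajuba to 0.890-fold to 1.59-fold. In DESeq2's test, which called 134 of 13871 genes (0.966%), the others were not called either, and Fblim1 was given no adjusted p.

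The rule that chose the members did not name the sets of mice, and the spread between sets raised under the same condition was tested. Trip6 was selected with a test that weighs the spread within condition, and spread between sets is part of that. For Trip6 the test of sets is therefore not independent of its selection. In MS, Trip6 was at 13.8 and 13.2 CPM in set A, at 12.3, 15.1 and 11.7 CPM in set B and at 10.1, 10.7 and 11.2 CPM in set C. Every mouse of set C lay below every mouse of sets A and B. In SR, Trip6 was at 8.41, 9.17 and 10.3 CPM in set D, at 9.04, 11.7 and 12.0 in set E, at 9.56, 9.12 and 10.4 in set F and at 8.79, 9.84 and 10.2 in set G. The 4 SR sets overlapped. The mean of SR set E was 10.9 CPM, above the 10.7 CPM of MS set C, so the sets of MS and SR overlapped as well. Ajuba showed the same low set, with 2.79, 1.42 and 1.81 CPM in set C against 3.22 and 3.76 CPM in set A and 4.13, 3.89 and 4.01 CPM in set B. The left-out mouse A2 of set A had 2.21 CPM, below the highest mouse of set C. In SR its values ran from 1.40 to 4.39 CPM with overlap between all sets. The summed level of the 10 choroid plexus markers, genes of the choroid plexus epithelium in the ventricles, was also low in set C, at 169 to 2326 CPM against 4986 to 6415 CPM in the kept mice of sets A and B, and at 249.8 CPM in A2. Its part in the difference between these sets was not tested.

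Neither gene passed the test of sets within condition with low counts filtered out, with adjusted p = 0.575 for Trip6 and 0.510 for Ajuba (edgeR quasi-likelihood F-test over all genes). The adjusted p of Wtip was 0.605 and those of the other 4 members lay between 0.764 and 0.919. Over all 18146 genes this test called 6 (0.0331%), with 1650 at an unadjusted p under 0.05, so 0 calls among 7 members does not set them apart from other genes. Without the filter on low counts Ajuba passed (adjusted p = 0.00786), as 1 member of 7, in a test that called 1992 of 39023 genes (5.10%).

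**Figure D2:**
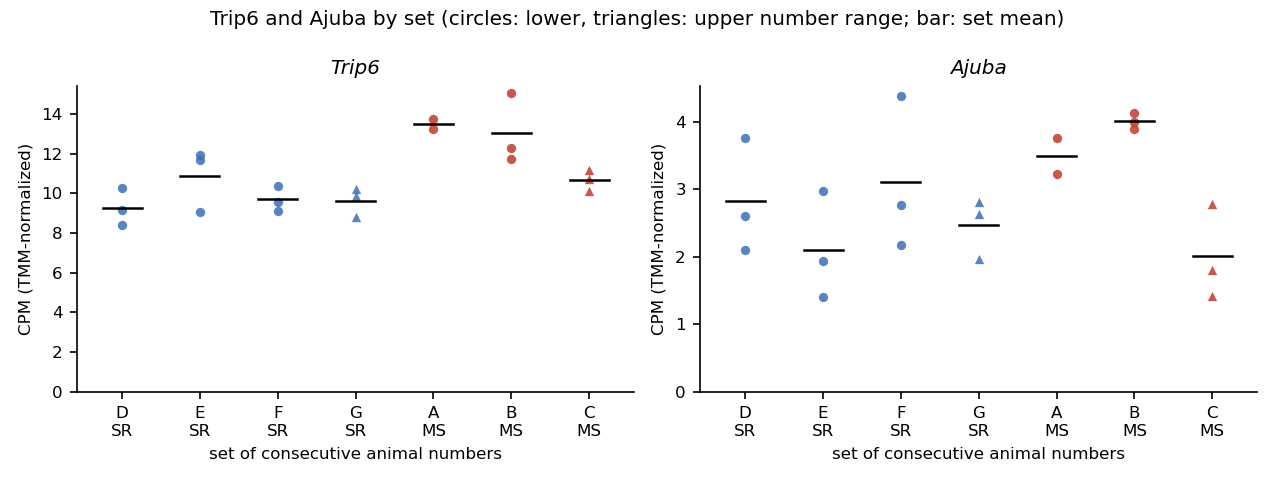
Levels of Trip6 and Ajuba in CPM in each set of consecutive animal numbers, 1 point for each mouse (MS sets A to C, SR sets D to G). The 3 mice of set C lie below the plotted mice of sets A and B for both genes, at 10.1 to 11.2 CPM for Trip6 and 1.42 to 2.79 CPM for Ajuba.

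Set C is the MS set of the upper range of animal numbers and set G its SR counterpart, so the separation effect was also taken within each range. The choroid plexus values of set C are given above. The upper range holds no other set, so its effect is that of set C against set G, and range and set cannot be told apart there. For Trip6 the log2 fold change was 0.41 in the lower range (SE 0.0837), where the 5 MS mice had 13.2 ± 1.30 CPM and the 9 SR mice 9.95 ± 1.22 CPM. In the upper range it was 0.15 (SE 0.125), with 10.7 ± 0.538 CPM in 3 MS mice and 9.62 ± 0.736 CPM in 3 SR mice. As Trip6 was selected on the pooled difference, these are descriptions. The difference between the effects was -0.26 on the log2 scale (SE 0.151, adjusted p = 0.633 in edgeR's interaction test). Ajuba had a log2 fold change of 0.51 (SE 0.205) in the lower range and of -0.31 (SE 0.317) in the upper range. That difference, -0.81 (SE 0.378), did not pass either (adjusted p = 0.555). Limd1 had log2 fold changes of 0.20 and -0.08 in the lower and upper range, Wtip 0.06 and -0.16, Zyx -0.05 and -0.07, Lpp 0.08 and 0.05, and Fblim1 0.27 and 0.19. The interaction test called 0 of 18146 genes (0.00%), with 1573 at an unadjusted p under 0.05.

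Between the ranges, with condition as a term, the level of Trip6 differed by -0.17 on the log2 scale, upper against lower (SE 0.0786, adjusted p = 0.319), and that of Ajuba by -0.46 (SE 0.204, adjusted p = 0.292). For the other 5 members the differences lay between -0.29 and 0.05. The test of the ranges called 51 of 18146 genes (0.281%), with 2732 at an unadjusted p under 0.05, and no member was among the calls. With the range as a term, the log2 fold change of Trip6 between MS and SR was 0.33.

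**Figure D3:**
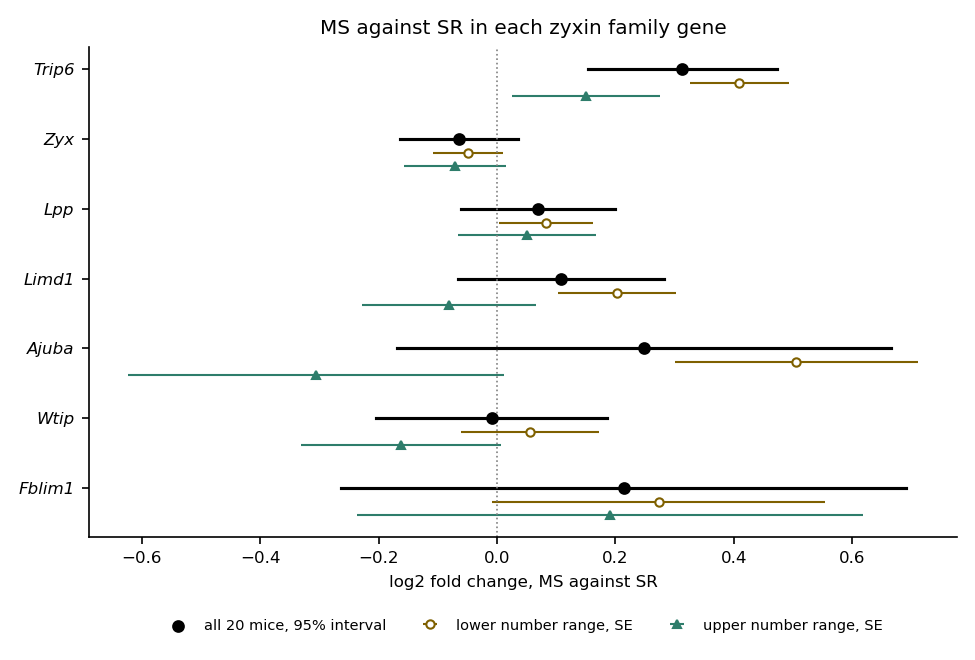
Log2 fold change of MS against SR for each member, with 95% intervals over all 20 mice (filled circles) and with SE within the lower (open circles) and upper (triangles) range of animal numbers. Trip6 lies at 0.31, 0.41 and 0.15, and Ajuba lies at 0.51 in the lower range and at -0.31 in the upper.

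Whether the members vary together between mice of the same condition was asked after the condition means had been subtracted from log2 CPM. Set means were not subtracted and the permutation ignored sets, so differences between sets of a condition enter r. Over the 21 pairs of members, Pearson's r in 20 mice ran from -0.29 to 0.53. The highest was between Limd1 and Ajuba (r = 0.53, two-sided permutation p = 0.0184, adjusted p = 0.387 over the pairs), with Spearman's rho = 0.49 (permutation p = 0.0318, adjusted p = 0.425). Without the 2 mice farthest from the median of Limd1, r was 0.47. In MS mice alone r was 0.82, and in SR mice alone it was 0.30. Trip6 and Ajuba had r = 0.41 (permutation p = 0.0943, adjusted p = 0.671) and rho = 0.48 (permutation p = 0.0404, adjusted p = 0.425), with r = 0.35 without the 2 mice farthest from the median of Trip6. For Trip6 and Ajuba r was 0.60 in MS mice alone and 0.21 in SR mice alone. No pair had an adjusted p under 0.05. Trip6 and Lpp, the pair with 72.9% identity, had r = 0.29, and Trip6 and Zyx had r = 0.05.

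**Figure D4:**
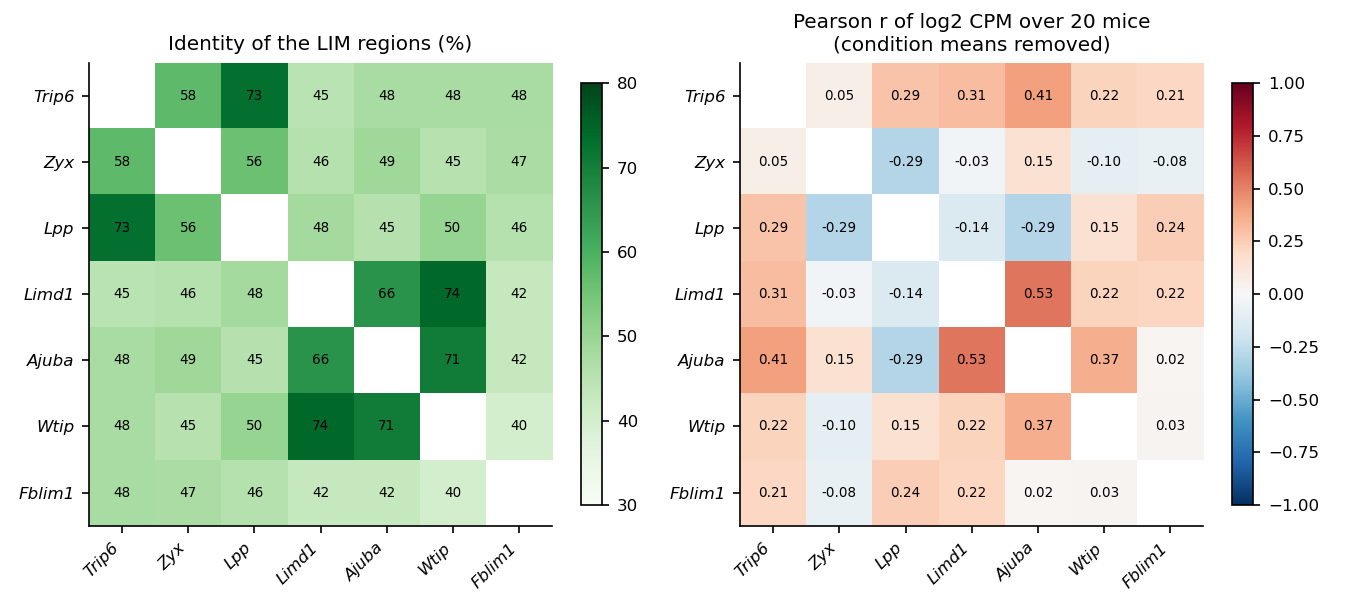
Percent identity of the LIM regions of each pair of members (left) and Pearson's r of their log2 CPM between 20 mice after subtraction of condition means (right). The identity falls into the Trip6, Lpp and Zyx block and the Limd1, Ajuba and Wtip block, while r lies between -0.29 and 0.53 with its highest value for Limd1 and Ajuba.

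Among 15854 genes with a mean of at least 1 CPM, the 5 whose levels followed Trip6 most closely over the 20 mice, after the same subtraction, were Gm37581 (r = 0.84), Fhod1 (r = 0.77), Zfp36l1 (r = 0.76), Lamb2 (r = 0.76) and Itpripl2 (r = 0.75). Fhod1 encodes a formin that bundles actin filaments, Zfp36l1 an RNA-binding protein that speeds mRNA decay and Lamb2 a laminin chain of vascular basement membranes. These r are descriptions, chosen as the highest of many, from libraries that share the same mice. Of these genes Zfp36l1 had a log2 fold change of 0.22 between MS and SR (SE 0.0543, adjusted p = 0.134), and the other 4 had 0.10 to 0.12 with adjusted p of 0.499 to 0.803. In the same ranking Ajuba was placed at 1302, Limd1 at 2560, Lpp at 2896 and Zyx at 7080.

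The wider pathways were read from lists of genes. Of 38 adhesion and actin partners of the family, among them integrin, talin and VASP genes, 19 had a positive and 19 a negative log2 fold change, the median was -0.00 and 0 passed the test. Tns3, a tensin of focal adhesions, had 102.4 ± 7.63 CPM in MS and 95.7 ± 4.46 CPM in SR (log2 fold change 0.10, adjusted p = 0.352). Flna, which encodes an actin-crosslinking partner of migfilin, had 149 ± 11.6 CPM in MS and 160.1 ± 7.94 CPM in SR (log2 fold change -0.10, adjusted p = 0.354). At an unadjusted p under 0.05 there were 2 genes higher and 2 lower, or 10.5% of the list, where 11.5% of all genes tested had such a p.

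Of 25 Hippo pathway genes 24 were tested, since Ankrd1 reached at most 4 counts, and Ajuba is the member of the family among them. Their log2 fold changes were positive in 19 and negative in 5, with a median of 0.07, and 0 passed the test, while among all genes tested 50.3% were positive and the median was 0.00. Yap1, the transcriptional coactivator that the pathway holds in check, had 26.1 ± 4.03 CPM in MS and 22.2 ± 2.49 CPM in SR (log2 fold change 0.23, SE 0.0794, adjusted p = 0.262). Wwc1, the upstream scaffold KIBRA, had a log2 fold change of 0.09 (adjusted p = 0.289), and Amotl2, an angiomotin and a target of YAP1, had 0.20 (adjusted p = 0.319). These were the 3 genes of the list at an unadjusted p under 0.05, or 12.5% against 11.5% of all genes.

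Of 43 genes for other LIM proteins, 21 were positive and 22 negative, the median log2 fold change was -0.00 and 0 passed the test. Some of these genes also stand in the list of adhesion and actin partners, so the medians of those lists are not independent. Pdlim5, a PDZ and LIM protein of the actin cytoskeleton, had a log2 fold change of 0.15 (adjusted p = 0.265), Csrp2, a LIM-only protein of smooth muscle and glia, had 0.45 (SE 0.197, adjusted p = 0.375), and Prickle1, of planar cell polarity, had -0.10 (adjusted p = 0.405). The share at an unadjusted p under 0.05 was 11.6%.

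**Figure D5:**
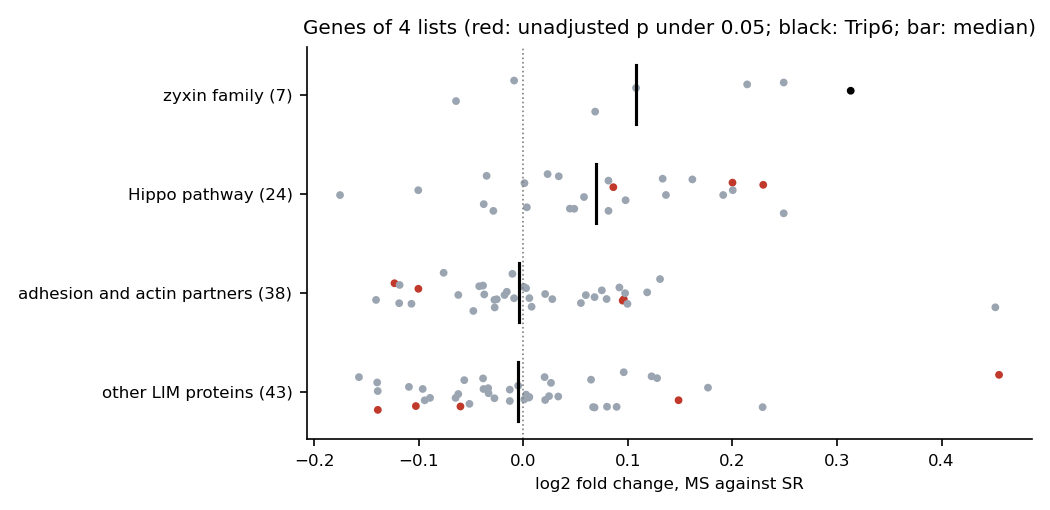
Log2 fold change of MS against SR for each gene of the zyxin family, the adhesion and actin partners, the Hippo pathway and the other LIM proteins, with a bar at the median of each list. Trip6 is drawn in black, red points have an unadjusted p under 0.05, and the medians of the 3 pathway lists lie between -0.00 and 0.07 while no gene passes an adjusted p of 0.05.

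Markers of other cell types were read in the same mice. The 10 choroid plexus markers, genes of the epithelium of that tissue in the ventricles, had positive log2 fold changes in 10 of 10 genes with a median of 0.88, and 0 passed the test. Their summed level ran from 169 to 6415 CPM in MS (median 5215) and from 174 to 7051 CPM in SR (median 1454), and none of the markers of any cell type list was at 0 in a library. With the level of this list as a term in the fit, added after seeing the data, the log2 fold change was 0.25 for Trip6, 0.0039 for Ajuba and 0.02 for Limd1. Without the term the values were 0.31, 0.25 and 0.11. For Fblim1, Lpp, Zyx and Wtip the values were 0.15, 0.08, -0.04 and -0.04 with the term. Without it they were 0.21, 0.07, -0.06 and -0.01, so Lpp rose and Wtip moved away from 0. The shifts were not tested. The 9 striatal neuron markers were positive in 9 of 9 genes, with 0 passing the test, at 89.5 to 708 CPM in MS (median 128) and 94.9 to 443 CPM in SR (median 116). The mouse B1 alone had 708 CPM, and the other 7 MS mice had 89.5 to 170 CPM. Without B1 the log2 fold change was positive in 1 of the 9 genes with a median of -0.45, and that of Trip6 was 0.31. Among SR mice E2 alone had 443 CPM, and the others had 94.9 to 170 CPM. Without E2, with B1 kept, the log2 fold change was positive in 9 of 9 genes with a median of 0.69, and that of Trip6 was 0.34. Endothelial markers, at 351 to 415 CPM in MS and 312 to 463 CPM in SR, were positive in 8 of 10 genes, and microglial markers in 8 of 10. Astrocyte markers were positive in 7 of 10, mature oligodendrocyte markers in 7 of 10, fibroblast and meningeal markers in 6 of 10, and mural cell markers in 4 of the 9 tested. Granule cell markers were positive in 2 of 9 and CA pyramidal cell markers in 3 of 9. No gene of these lists passed the test, and the part of any list, choroid plexus included, in the differences of the members was not tested.

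Some annotated genes overlap the members, and their effect on the counts of the members was not measured. Epha1 and the antisense gene Gm44284 lie on the strand opposite Zyx, with 236 bases of exon shared by Epha1, and had 7 to 28 and 9 to 31 counts per library against 603 to 1031 for Zyx. Whether the counting used strand is not given in the sources used here. Within an intron of Lpp, on the same strand, the processed pseudogene Morf4l1-ps1 had 775 to 1269 counts per library and a log2 fold change of -0.03 (SE 0.0494, adjusted p = 0.882), and it shared no exon bases with Lpp. Mir28a and Gm24440, also within Lpp, had 0 counts in every library, and Gm22672 had at most 2. No annotated gene overlapped Trip6, Limd1, Ajuba, Wtip or Fblim1.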

How the data were processed

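The authors aligned paired-end reads to GRCm38 with STAR 2.7.3a and counted them with featureCounts (names and version from the submitters' processing notes), and the deposited values are raw read counts per gene, not normalized or filtered. Strand settings are not given in the sources used here. Columns that belong to no sample numbered 0. Counting error weighs most on Ajuba and Fblim1, the members of fewest counts. Exon lengths and overlaps are from GENCODE M21, which may differ from the annotation the authors counted on.

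After filterByExpr (minimum count 10) and TMM scaling, the robust quasi-likelihood test of edgeR 4.0.16 (R 4.3.3) was run on all 18146 genes that passed, and p-values were adjusted by Benjamini-Hochberg with a threshold of 0.05. Log2 CPM used a prior count of 2. The library farthest from the median on the first component of a PCA (500 genes of highest variance after the variance stabilisation of DESeq2 1.42.0) was left out, since the study removed an outlier without naming it. No libraries of a condition agreed within sampling noise, with a lowest chi-square of 3.58 per degree of freedom over the pairs. Correlations were tested by permutation within conditions (100000 draws). Sequences, positions and symbols are those of GENCODE M21. The scripts were tested on simulated data.

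The members and lists were chosen with earlier results of these data known. The genes named are the members, the 5 genes most like Trip6, the 3 genes of smallest unadjusted p in each pathway list, overlapping genes and genes not tested, and 1 gene that this rule names is not reported here. Alternatives were all 21 libraries, DESeq2's Wald test and size factors, no filter, voom of limma 3.58.1 with sets as random blocks, the number range as a term, counts summed within sets, and each mouse and set left out in turn. The choroid plexus list as a term was added after seeing the data.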

Additional observations from a re-analysis of the deposited data

How the results depend on the processing

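None of the 6 members other than Trip6 passed the test of MS against SR in any of 36 alternatives. Where few or 0 of all genes were called, as in the counts below, this does not set the members apart from other genes. Trip6, selected on this comparison, was left out of that count, and it was not called where 0 genes were called. The log2 fold change of Trip6 lay between 0.25 (choroid plexus list as a term) and 0.42 (without set C), and between 0.26 and 0.35 with any 1 mouse left out. Wtip, near 0 throughout, turned to 0.0052 with counts summed within sets, 0.0032 without set B, 0.017 without set C, 0.061 without set F and 0.025 without set G, and ran from -0.045 to 0.038 with any 1 mouse left out. Ajuba turned to -0.016 without set B and was at 0.0039 with the choroid plexus term. The count of genes called between MS and SR by edgeR, 2 in the report, was 1 with all 21 libraries, 1 with no filter, 1 without set G and 340 without set C. It was 0 with counts summed within sets (1753 genes at an unadjusted p under 0.05), without sets A (1561), B (1769), D (1568) or F (1704), and with the choroid plexus term (1530). DESeq2 called 134. With 1 mouse left out the count ran from 0 to 109, with 0 on leaving out F1, E3, D2 or any of A1, A3, B1 and B2, where 1661 to 2069 genes had an unadjusted p under 0.05, and 109 without C2 or C3. With no filter, 1992 genes were called between sets within condition, 1872 of which had passed the filter and 1 of which was a member, Ajuba (adjusted p = 0.00786), and 1 in the interaction with the number range. The median of the other LIM proteins was 0.040 with all 21 libraries. The causes were not tested. No paired analysis was possible because the labels give no replicate numbers, and numbers given in accession order pair no mice. Depth limits Fblim1 and Ajuba most.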

Other observations

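In the left-out MS library A2, scaled with all 21 libraries, Trip6 was at 11.9 CPM, within the range of the other MS mice, and Ajuba, Wtip and Lpp were at 2.21, 6.30 and 10.7 CPM, also within the range of the MS mice kept. Zyx was at 42.6 CPM, above the highest other MS mouse and just under the highest SR mouse. Limd1 was at 19.3 CPM, above all 20 other mice. Fblim1 was at 3.16 CPM from 96 counts, where the highest of the other mice had 1.99 CPM and 47 counts. With all 21 libraries the log2 fold change of Fblim1 was 0.47, against 0.21 without A2.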
